A study of Sus scrofa domesticus with 2 samples.

Results

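The 9 fibrillar and associated collagen genes COL1A1, COL1A2, COL3A1, COL5A1, COL5A2, COL6A1, COL6A3, COL12A1 and COL14A1 were followed in cultured endothelial cells (ECs) of the pig. They were chosen by name from 22804 genes, and all 9 were found in both count matrices, 8 under their symbol and COL6A1 through a table that pairs gene identifiers with symbols. The question was which of these collagens belonged to ECs and which to mesenchymal cells in the same cultures. The origin of those mesenchymal cells was not tested. ECs line blood vessels. Mesenchymal cells are the connective tissue and contractile cells around them.

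Collagens are the main structural proteins of the extracellular matrix. The type I collagen triple helix is built from chains of COL1A1 and COL1A2, and type III collagen from COL3A1 chains, and both assemble into fibrils that give vessels their tensile strength. Type V collagen, from COL5A1 and COL5A2, takes part in starting and limiting fibril growth. COL6A1 and COL6A3 encode chains of type VI collagen, which forms beaded filaments around cells, and COL12A1 and COL14A1 encode types XII and XIV, which attach to the surface of fibrils without forming fibrils themselves.

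There was 1 library of primary ECs from the aorta and 1 from the lung, both of the domestic pig, released with collagenase, grown in culture with 10% fetal calf serum and given no further treatment. Tissues for single-cell libraries came from crossbreeds of Landrace, Large White and Duroc according to the methods, which do not say whether this covers the cultures. The sex and the number of animals behind each library were not given in the sources used here. Single cells were captured by droplet RNA sequencing from the 3′ end, in which a unique molecular identifier (UMI) counts each captured molecule once. The aorta library held 46080859 UMIs in 1185 barcodes and the lung library 57213236 UMIs in 5946 barcodes, and 5 barcode sequences were common to both. With 1 library per origin there was no replicate, so no test was made, and all intervals are 95% intervals of counting error only.

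Keeping barcodes in which over 200 but under 5000 genes were detected, with a mitochondrial share below 30%, left 246 aorta and 5683 lung barcodes. The study kept more aorta cells than these limits leave, and how it applied the upper limit to that library is not known here. The upper limit removed 709 aorta barcodes with otherwise accepted values, and these deep aorta cells are shown beside the shallow aorta cells under 5000 genes. A cell with more PECAM1 UMIs than COL1A1 and COL1A2 UMIs together was put in the endothelial class, the opposite in the mesenchymal class, and equal counts in neither. PECAM1 is an adhesion molecule of EC junctions. The endothelial class held 123 shallow aorta, 581 deep aorta and 5286 lung cells, the mesenchymal class 57, 128 and 349, and neither class 66, 0 and 48. Median depth was 7864, 57100 and 9418 UMIs in the endothelial class and 4323, 64510 and 10650 in the mesenchymal class.

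**Figure D1:**
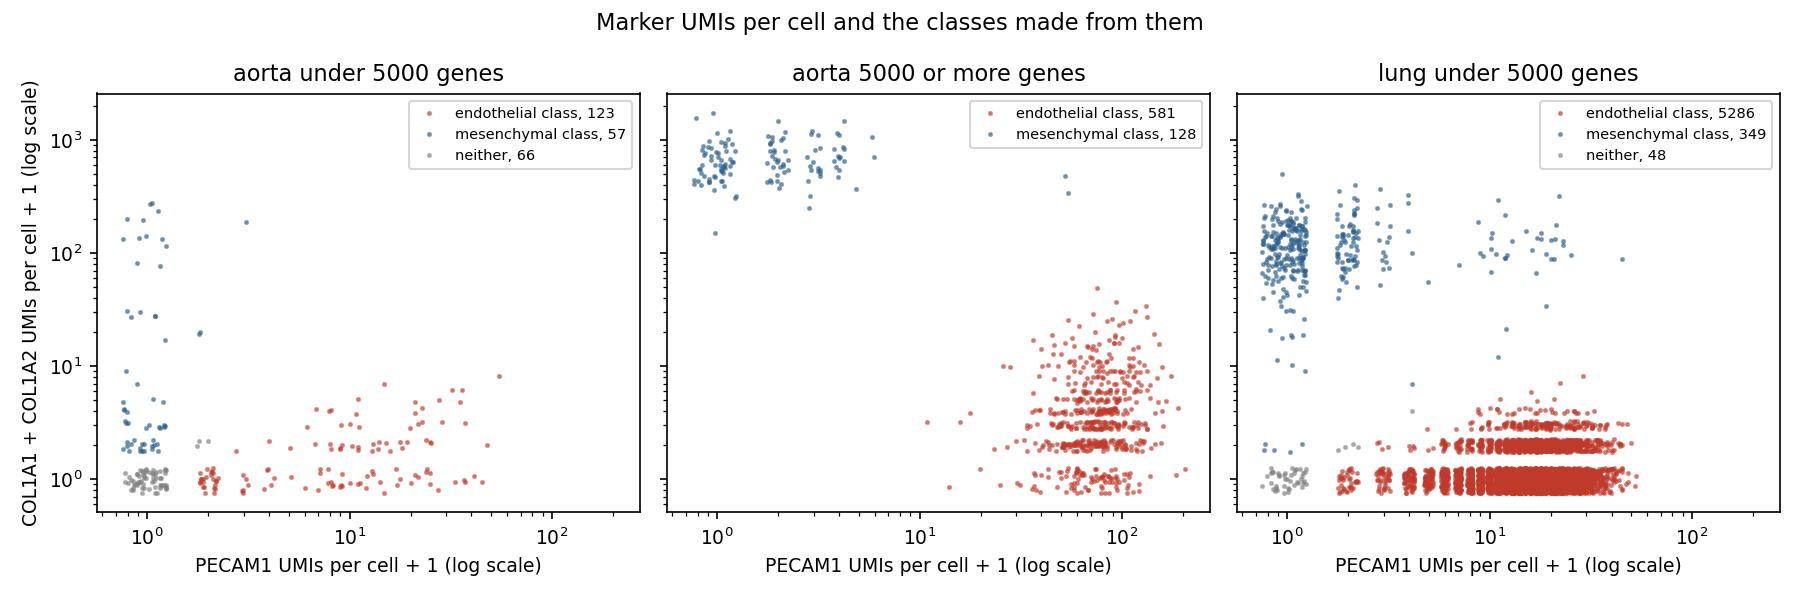
UMIs of COL1A1 and COL1A2 together (vertical, plus 1, log scale) against PECAM1 UMIs (horizontal, plus 1, log scale) for each cell, with a small random shift to separate points and 1 panel for each set of cells. Red cells are the endothelial class, blue the mesenchymal class and grey neither, and 146 of the 581 deep aorta endothelial and 35 of the 349 lung mesenchymal cells carried at least 5 UMIs of both markers.

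All members but COL6A1 had a place by symbol in NCBI RefSeq on Sscrofa11.1, the build the counts rest on. COL3A1 (chr15:93556914-93595678, plus strand) and COL5A2 (chr15:93611856-93981131, minus strand) lie tail to tail with 16177 bases between them, and the COL5A2 model overlaps WDR75 on the opposite strand. COL12A1 lies at chr1:90744409-90875127, COL5A1 at chr1:273934219-274083264, COL1A1 at chr12:26379087-26397180, COL1A2 at chr9:74174484-74210407, COL14A1 at chr4:18690197-18925111 and COL6A3 at chr15:137011549-137103687, and no annotated gene overlapped these 6.

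The 250 bases before the RefSeq start are shown for the type I genes, which varied together among mesenchymal cells, and for COL12A1, which was higher in ECs. They read 5′ to 3′ on the strand of the gene, and capitals mark matches to any of 5 motifs on either strand. The CCAAT box was searched as CCAAT, the GC box as GGGCGG and the TATA box as TATAAA. The AP-1 site was searched as TGANTCA and the E box as CAGGTG, and no motif overlapped another in these windows.
COL1A1 (chr12:26397181-26397430, minus strand): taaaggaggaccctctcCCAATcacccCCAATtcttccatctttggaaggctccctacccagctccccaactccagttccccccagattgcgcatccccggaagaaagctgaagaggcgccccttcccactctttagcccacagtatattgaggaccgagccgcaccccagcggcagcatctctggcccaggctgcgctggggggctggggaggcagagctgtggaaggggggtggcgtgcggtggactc
COL1A2 (chr9:74174234-74174483, plus strand): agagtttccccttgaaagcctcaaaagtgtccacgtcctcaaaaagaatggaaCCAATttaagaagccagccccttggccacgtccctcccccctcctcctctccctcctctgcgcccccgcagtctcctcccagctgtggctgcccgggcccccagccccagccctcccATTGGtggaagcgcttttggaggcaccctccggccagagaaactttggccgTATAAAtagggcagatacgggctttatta
COL12A1 (chr1:90744159-90744408, plus strand): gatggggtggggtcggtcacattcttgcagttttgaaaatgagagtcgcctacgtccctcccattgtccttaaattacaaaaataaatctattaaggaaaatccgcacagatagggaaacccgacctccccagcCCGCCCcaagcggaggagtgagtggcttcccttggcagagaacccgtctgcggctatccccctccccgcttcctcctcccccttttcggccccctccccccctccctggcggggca

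The COL1A1 window held 2 CCAAT matches and the COL1A2 window 2 CCAAT matches and 1 TATA match, at bases -29 to -24 counted back from the start. The COL12A1 window held 1 GC box match. Among 19556 windows of the same length before protein-coding genes, 31.9% held CCAAT, 45.9% the GC box, 9.77% the TATA box, 5.27% the AP-1 site and 19.6% the E box. Annotated starts were not checked against these 3′ counts and may not be the main starts of transcription, that of COL1A1 included, and a match is a description of the letters only.

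The labels were checked with markers that hold neither PECAM1 nor a collagen. Of 11 endothelial markers, such as CDH5 and EGFL7, all that reached 20 CPM (UMIs of a gene per 1e+06 UMIs of its class) were at least 2-fold higher in the endothelial class, 10 in shallow aorta, 10 in deep aorta and 9 in lung cells. KDR, a growth factor receptor of ECs, was nearly absent, at 0.807, 0.375 and 1.77 CPM in the endothelial class. Of 12 mesenchymal markers, 6, 5 and 5 were higher in the mesenchymal class, and 4, 2 and 1 in the endothelial class. They were led in the lung by CSPG4, PDGFRB and PRRX1, while DCN and LUM, which encode small proteoglycans of fibroblasts, stood at 2.82 and 0.768 CPM in lung mesenchymal cells. Contractile genes were higher in the mesenchymal class for 5 of 6 genes in each set of cells, and the mesenchymal class is therefore named here only by its rule and by CSPG4, PDGFRB and ACTA2. Immune and epithelial markers stayed under 20 CPM, and of 7 mitosis genes 1, 1 and 0 were higher in the mesenchymal class. Over all genes at 20 CPM, 11.1%, 7.64% and 6.51% were higher in the mesenchymal and 20.9%, 12.5% and 9.57% in the endothelial class.

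Type I chains were used to define the classes, so their difference between classes is a description. COL1A1 stood at 3205 CPM in shallow aorta, 4820 in deep aorta and 5239 in lung mesenchymal cells, against 18.6, 20.0 and 13.6 CPM in the endothelial class. COL1A2 stood at 3218, 5294 and 5753 CPM in mesenchymal cells against 62.1, 44.9 and 13.9 CPM in the endothelial class. In classes made from the marker lists without collagens, COL1A1 was still 4890 against 31.7 CPM in deep aorta cells and 5616 against 53.0 CPM in lung cells. Type I chains made up 88.2%, 86.6% and 84.9% of the members' UMIs in the mesenchymal class and 12.5%, 8.88% and 7.22% in the endothelial class.

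COL12A1 was the member with its higher level in ECs in every set of cells. Its level was 204 CPM (interval 179.7 to 230.9) in shallow aorta, 271 CPM in deep aorta and 240.5 CPM in lung endothelial cells, against 37.0, 58.1 and 73.0 CPM in mesenchymal cells. The mesenchymal level was thus 0.181 (0.0976 to 0.310), 0.214 (0.195 to 0.234) and 0.303 (0.269 to 0.341) of the endothelial level, and the intervals of the classes did not overlap in any set of cells. After each cell was thinned to 5000 UMIs, COL12A1 was seen in 52 of 82 (63.4%), 415 of 581 (71.4%) and 3167 of 4934 (64.2%) endothelial cells, and in 19.2%, 24.2% and 25.8% of mesenchymal cells. Before thinning the shares were 57.7%, 99.3% and 79.4% against 14.0%, 89.8% and 46.1%. In 17 immune-like lung barcodes, which should lack collagen and had a median of 5824 UMIs, COL12A1 UMIs were found in 3 cells, and 6 of the 17 also held PECAM1 UMIs. At 5000 UMIs the share was 3 of 9 barcodes (33.3%, 7.49 to 70.1), an interval that covers the shares of both classes, so these few barcodes set no usable background for COL12A1.

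COL3A1 had the largest aorta-over-lung ratio of the members in endothelial cells. In endothelial cells it stood at 78.3 CPM in shallow aorta and 83.8 CPM in deep aorta, but at 1.31 CPM in lung. The deep aorta level was 64.2 times the lung level (50.5 to 82.9) and the shallow aorta level 59.95 times (43.5 to 83.0). In mesenchymal cells COL3A1 stood at 139.9 CPM in shallow aorta, 405 in deep aorta and 497 in lung, so that the deep aorta level was 0.815 (0.771 to 0.862) of the lung level. The mesenchymal level was therefore 1.79, 4.83 and 381 times the endothelial level. At 5000 UMIs per cell COL3A1 was seen in 20.7%, 24.1% and 0.770% of endothelial cells (25.2%, 58.0% and 1.27% before thinning) and in 0 of 9 immune-like lung barcodes, which allows up to 33.3%. With classes from markers without collagens, deep aorta over lung endothelial cells was 17.2-fold and shallow aorta 15.5-fold, and the lung class then held 258 COL3A1 UMIs in 93 cells instead of 68 UMIs in 67 cells.

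COL3A1 was spread unevenly over deep aorta endothelial cells. It was found in 337 of 581 deep aorta endothelial cells, with a median of 1 UMI, a 90th percentile of 15 and a highest count of 90. COL5A2, COL12A1 and COL14A1 were found in 578, 577 and 524 of the same cells. At 5000 UMIs per cell, the variance of COL3A1 was 2.47 times its mean, against 1.35 for COL5A2, 1.53 for COL12A1 and 1.53 for PECAM1, and 30 of 581 cells held 46.4% of its UMIs. In 82 shallow aorta endothelial cells the variance was 1.20 times the mean for COL3A1, below 1.42 for COL12A1 and 2.01 for PECAM1. Among the 435 deep endothelial cells without 5 or more UMIs of both class markers the COL3A1 level was 79.6 CPM. Among the 146 cells with both it was 94.7 CPM. COL1A1 stood at 8.62 and 49.1 CPM, a difference made by the split itself, which uses COL1A1 and COL1A2 UMIs.

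Both type V chains were present in both classes. COL5A2 stood at 215 CPM in shallow aorta, 223 in deep aorta and 67.3 in lung endothelial cells, and at 111, 219 and 357 CPM in mesenchymal cells. The mesenchymal level was 0.515 of the endothelial level in shallow aorta (0.363 to 0.715), 0.982 in deep aorta (0.934 to 1.03) and 5.31 in lung (4.99 to 5.65). The order of the classes was thus opposite in shallow aorta and lung. Without barcodes under 1% mitochondrial UMIs the shallow aorta intervals overlapped. COL5A2 then stood at 175.5 CPM (124.8 to 240.0) in mesenchymal and 231.2 CPM (204.2 to 260.7) in endothelial cells. Thinned shares of cells with COL5A2 were 68.3%, 63.2% and 27.0% in endothelial and 19.2%, 56.3% and 73.3% in mesenchymal cells. COL5A1 was low, at 7.26, 7.94 and 7.62 CPM in endothelial cells and 26.4, 38.4 and 69.1 CPM in mesenchymal cells. Between deep aorta and lung endothelial cells COL5A2 was 3.31 times as high (3.18 to 3.45), while COL5A1 was 1.04 times (0.890 to 1.22), an interval that includes equal levels.

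Type VI chains stood at 2.57 CPM or less in the endothelial class. With classes from markers without collagens, lung endothelial cells held 8.11 CPM of COL6A1 and 0.341 CPM of COL6A3. COL6A1 stood at 433, 649.7 and 780.1 CPM in mesenchymal cells and at 0.807, 1.24 and 2.57 CPM in endothelial cells, from 1, 43 and 134 UMIs. COL6A3 stood at 21.1, 38.6 and 30.7 CPM in mesenchymal cells, with 0 UMIs in the 123 shallow aorta endothelial cells, 1 in the 581 deep aorta cells and 5 in the 5286 lung cells. The 0 UMIs allow up to 2.42 CPM, so the shallow aorta mesenchymal level was at least 8.73-fold higher. At 5000 UMIs per cell COL6A1 was seen in 93.8% of deep aorta and 90.9% of lung mesenchymal cells, and in 0.689% and 1.01% of endothelial cells (6.89% and 2.52% before thinning), while the thinned shares of COL6A3 were 19.5% and 14.8% against 0 of 581 cells (up to 0.516%) and 0.0405%.

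COL14A1 lay between these patterns. It stood at 59.7, 78.6 and 33.8 CPM in endothelial cells and 92.4, 161 and 151 CPM in mesenchymal cells. The mesenchymal level was 1.55 (1.005 to 2.34), 2.05 (1.92 to 2.18) and 4.47 (4.07 to 4.91) times the endothelial level. After thinning it was seen in 31.7%, 32.4% and 13.6% of endothelial and 26.9% of shallow aorta, 63.3% of deep aorta and 159 of 318 lung mesenchymal cells.

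**Figure D2:**
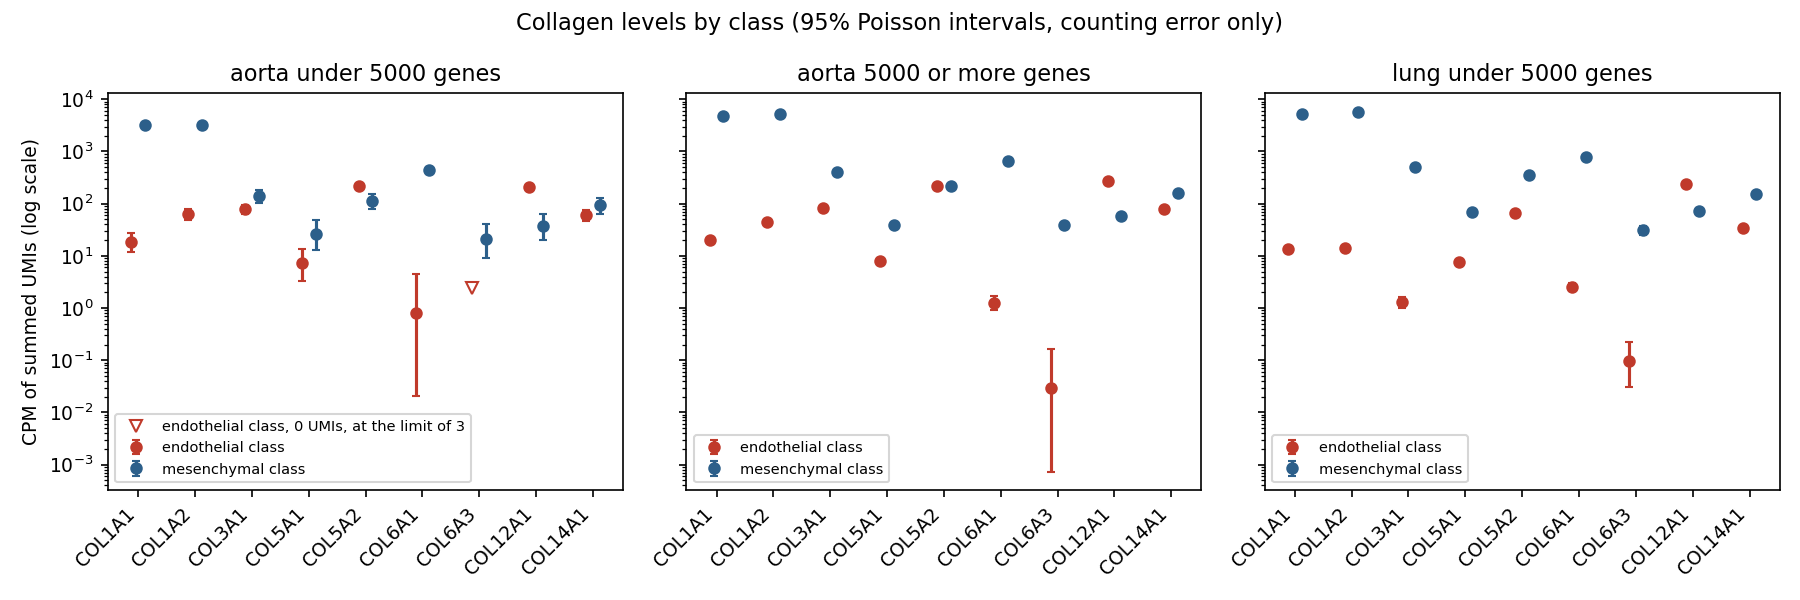
CPM of UMIs summed over each class (vertical, log scale) for the 9 members, with 95% Poisson intervals and 1 panel for each set of cells. Red is the endothelial and blue the mesenchymal class, the open triangle is 0 UMIs drawn at the limit of 3 counts, and COL12A1 is the member whose red point lies above the blue in all 3 panels.

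At a 2-fold difference and 20 CPM or more in the higher class, 5 of 9 members were higher in the mesenchymal class in shallow aorta, where 11.1% of all genes at 20 CPM were, 7 of 9 in deep aorta (background 7.64%) and 8 of 9 in lung (background 6.51%). Without barcodes under 1% mitochondrial UMIs the shallow aorta count was 7, with COL3A1 at 220.5 against 84.3 CPM and COL14A1 at 153 against 62.6 CPM. COL12A1 alone was higher in the endothelial class in each set, where the background was 20.9%, 12.5% and 9.57%. The median mesenchymal-over-endothelial fold of the members was 3.64, 4.83 and 303, against 0.965, 1.02 and 0.990 over all genes tested. These counts and medians include COL1A1 and COL1A2, whose direction the class rule fixed, and the lung median was 96.2 with classes from markers without collagens.

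The endothelial level as a percent of the mesenchymal level of the same library separated the members. In lung cells 5 members lay close together, COL1A1 at 0.259%, COL1A2 at 0.242%, COL3A1 at 0.263% (0.203 to 0.334), COL6A1 at 0.330% (0.275 to 0.392) and COL6A3 at 0.312% (0.0996 to 0.749). COL5A1 at 11.0%, COL5A2 at 18.8%, COL14A1 at 22.4% and COL12A1 at 330% lay far above them. With classes from markers without collagens the first 5 stood at 0.944%, 0.852%, 0.920%, 0.959% and 1.04%, and the other 4 at 10.2%, 18.2%, 21.2% and 401%. In the 17 immune-like lung barcodes COL1A1 stood at 15.4 CPM, from 2 UMIs, beside 13.6 CPM in endothelial cells, and the part of RNA from outside the cell in these low levels was not tested. In deep aorta cells COL6A3 at 0.0748%, COL6A1 at 0.191% and COL1A1 at 0.414% were lowest, followed by COL1A2 at 0.848%, and then COL3A1 and COL5A1, both at 20.7%, COL14A1 at 48.9%, COL5A2 at 102% and COL12A1 at 468%.

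**Figure D3:**
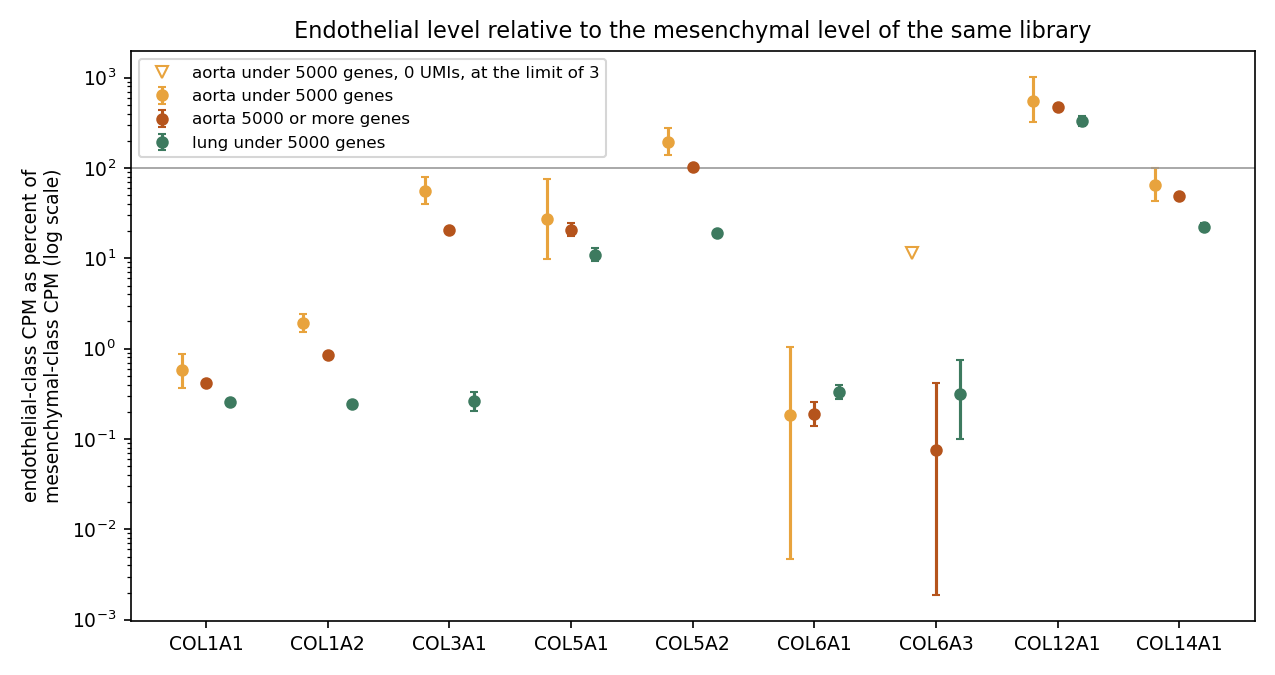
Endothelial-class CPM as a percent of mesenchymal-class CPM (vertical, log scale) for each member, with 95% counting intervals and the grey line at equal levels. COL3A1 lies at 0.263% in lung (green) but at 20.7% in deep aorta (brown) and 55.9% in shallow aorta (orange), and the open triangle is COL6A3 with 0 UMIs at the limit of 3 counts.

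The chains of 1 collagen were also set against each other. In mesenchymal cells there were 1.00, 1.10 and 1.10 UMIs of COL1A2 for each UMI of COL1A1, and 1.02 (0.921 to 1.14) in lung endothelial cells. In aorta endothelial cells the ratio was 3.35 (2.08 to 5.59) in shallow and 2.25 (2.06 to 2.46) in deep cells, above the ratio in aorta mesenchymal cells. With classes from markers without collagens it was 2.79 (1.79 to 4.46) and 1.78 (1.65 to 1.92). COL3A1 UMIs were 0.0961 of COL1A1 UMIs in lung endothelial cells and 0.0949 in lung mesenchymal cells, but 4.198 in deep aorta endothelial cells against 0.0841 in deep aorta mesenchymal cells. The class rule itself holds COL1A1 low in the endothelial class, so the size of this contrast depends on the rule. The deep aorta endothelial ratio was 2.65 with classes from markers without collagens. Without barcodes of both markers it was 9.23, but that filter itself removes cells by their COL1A1 and COL1A2 UMIs. Counts from the 3′ end depend on how well each transcript end is annotated, so only the change of a ratio between classes is compared.

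Between the origins, 3 members (COL1A2, COL3A1 and COL5A2) were at least 2-fold higher in shallow aorta than in lung endothelial cells, where 6.37% of all genes were, and 0 were higher in lung (background 3.84%). In deep aorta cells COL14A1 joined them, making 4 of 9 members (background 3.03%), and again 0 were higher in lung (background 1.27%). COL1A2 was 4.47-fold and 3.23-fold higher, and COL14A1 was 2.32-fold higher in the deep cells (2.19 to 2.47). The COL1A2 call depended on how the classes were made. With classes from markers without collagens COL1A2 stood at 60.4 in shallow and 56.3 in deep aorta against 53.1 CPM in lung, under 2-fold. Without barcodes of both markers it stood at 19.45 CPM in deep aorta against 13.7 CPM in lung. That filter uses type I UMIs and took out 146 of 581 deep aorta but 3 of 5286 lung endothelial cells. These 2 values therefore cannot show what the call rests on. COL12A1 was 0.849 (0.746 to 0.961) and 1.13 (1.10 to 1.16) of the lung level, so its direction was opposite in shallow and deep aorta cells. Without barcodes under 1% mitochondrial UMIs the shallow aorta level was 213.8 CPM (187.9 to 242.3). That interval overlaps the one of all lung endothelial cells, 236.3 to 244.8 CPM. The 7 members outside the class rule summed to 565.5, 666 and 353 CPM in endothelial cells and to 861, 1570 and 1959 CPM in mesenchymal cells.

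Mesenchymal cells of the 2 origins were closer to each other. In deep aorta over lung mesenchymal cells, 0 members were 2-fold higher in the aorta (background 2.28%) and 0 in the lung (background 1.77%), with ratios from 0.555 for COL5A1 to 1.26 for COL6A3. In shallow aorta cells 3 members (COL3A1, COL5A1 and COL5A2) were higher in lung, where 10.2% of all genes were. These shallow cells were mixed, since 31 of 57 had under 1% mitochondrial UMIs. In those 31 cells COL1A1 stood at 243 CPM against 5293 CPM in the other 26, and all 9 members were at least 2-fold lower (background 32.9%).

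**Figure D4:**
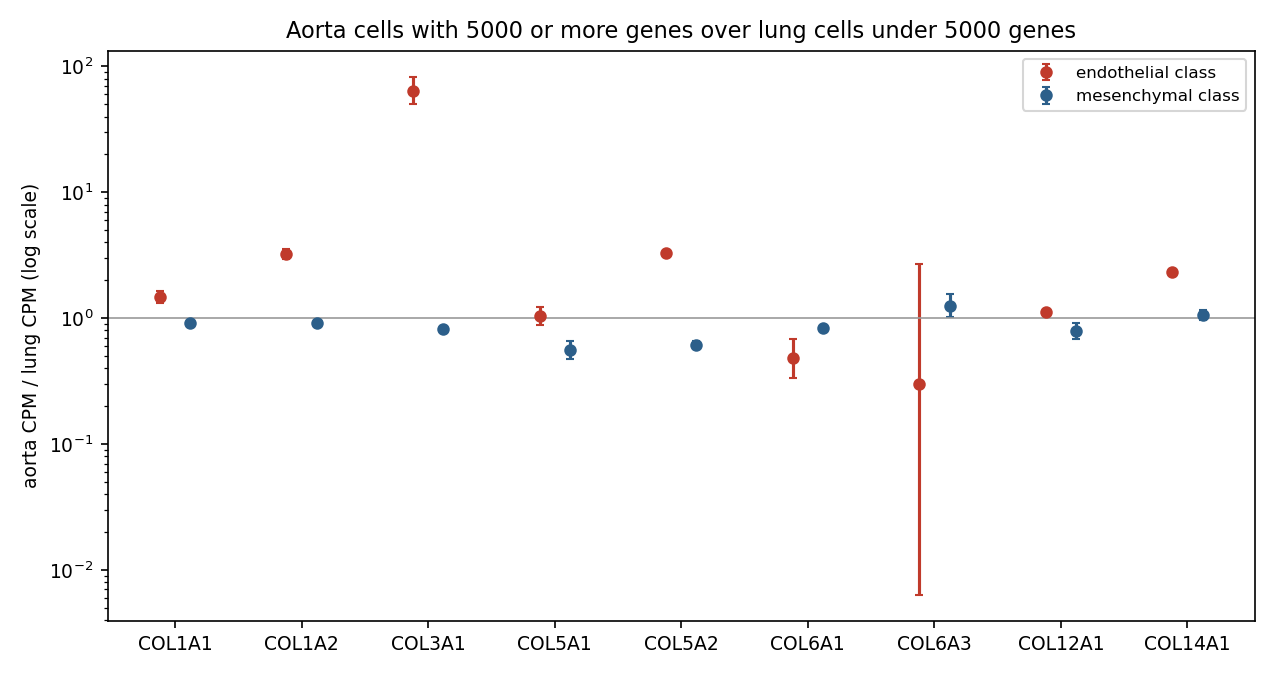
Ratio of deep aorta CPM to lung CPM (vertical, log scale) for each member in the endothelial class (red) and the mesenchymal class (blue), with 95% counting intervals and the grey line at 1. COL3A1 is at 64.2 in the endothelial class and 0.815 in the mesenchymal class, and the blue points stay between 0.555 and 1.26.

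Among the 349 lung mesenchymal cells COL1A1, COL1A2, COL3A1 and COL5A2 moved together from cell to cell. Spearman's rho of per-cell CPM was 0.81 for COL1A1 with COL1A2, 0.67 for COL1A1 with COL3A1, 0.58 for COL1A1 with COL5A2 and 0.55 for COL3A1 with COL5A2. The fibrillar chain COL5A1, with a median of 0 UMIs, had lower values. They were 0.29 with COL1A1, 0.32 with COL1A2, 0.29 with COL3A1 and 0.27 with COL5A2. COL6A1 had a rho of 0.06 with COL1A1 and -0.10 with COL3A1, and its highest was 0.24 with COL14A1. These cells share 1 library and differ in depth, and values near 0 in sparse counts are no finding. In 128 deep aorta mesenchymal cells rho was 0.77 for COL1A1 with COL1A2 and 0.51 for COL3A1 with COL5A2, but 0.26 for COL1A1 with COL3A1 and 0.31 for COL1A1 with COL5A2. COL6A1 there had a rho of 0.34 with COL1A1 and 0.41 with COL1A2. In 581 deep aorta endothelial cells the highest rho of any pair was 0.34, for COL3A1 with COL5A2. The class rule kept type I UMIs low in these cells, at a median of 0 for COL1A1 and 1 for COL1A2. Their low rho values there are thus no finding.

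**Figure D5:**
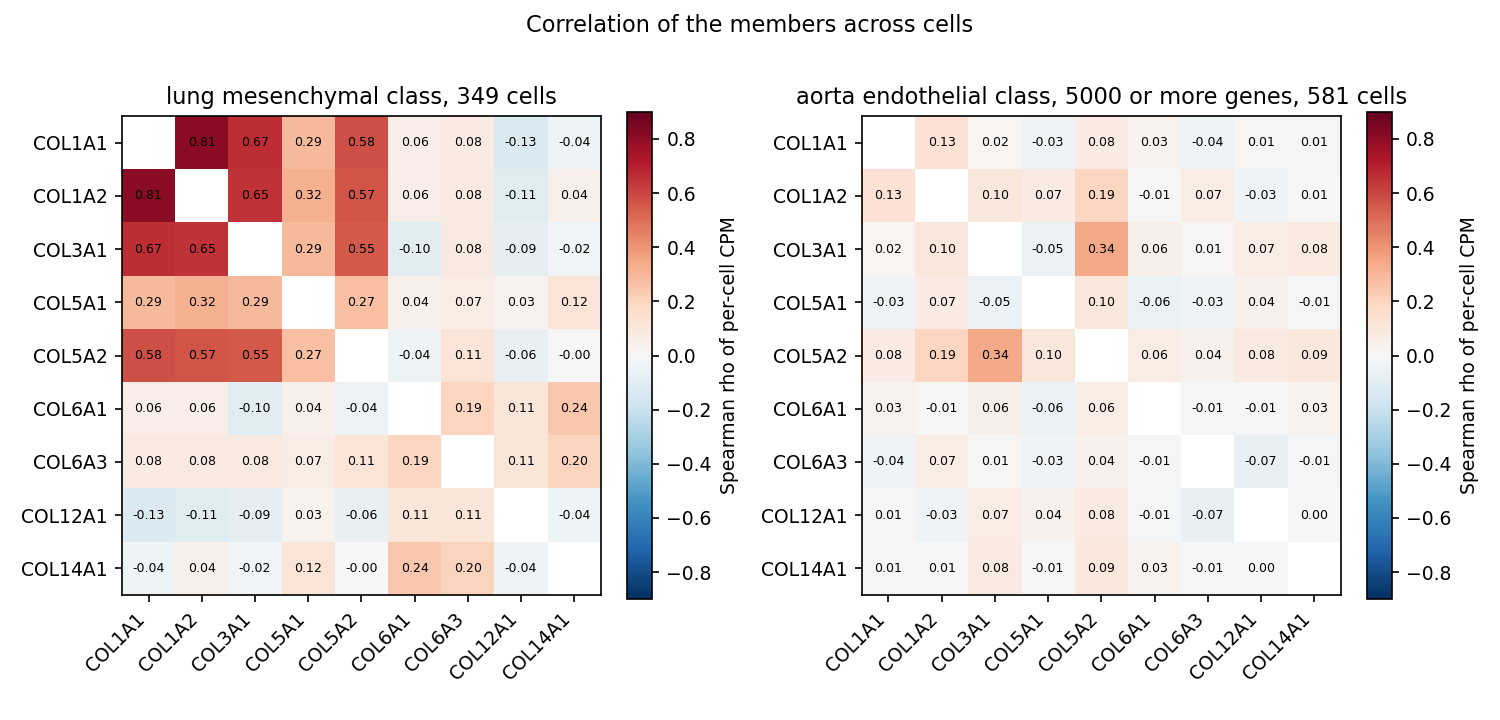
Spearman's rho of per-cell CPM between members, as colour and number, in 349 lung mesenchymal cells (left) and 581 deep aorta endothelial cells (right). COL1A1, COL1A2, COL3A1 and COL5A2 form a block at 0.55 to 0.81 on the left, and the highest value on the right is 0.34. The class rule kept type I UMIs low on the right, with a median of 0 for COL1A1 and 1 for COL1A2. The panels therefore cannot be compared for pairs with a type I chain.

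The genes outside the collagens with the most similar pattern in lung mesenchymal cells, out of 1445 at 100 CPM or more, also differed. SPARC, a secreted protein that binds collagen, led for COL1A1 (rho 0.58), COL1A2 (0.57), COL3A1 (0.58) and COL5A2 (0.44), and IGFBP5, a binding protein of insulin-like growth factors, was in the top 3 of each of these 4. LOX, a cross-linking enzyme, completed the 3 for COL1A1, FMOD, a proteoglycan on fibrils, those for COL1A2, and SFRP2 those for COL3A1 and COL5A2. For COL6A1 they were BGN (0.43), TIMP2 and TAGLN, and for COL14A1 VCAN (0.35), BGN and LTC4S. In deep aorta endothelial cells, looked at after the values were known, the closest included MYO10 (0.41) and IL6ST for COL12A1, PRSS12 (0.45), IGFBP7 and LTBP2 for COL5A2, and LTBP2 (0.24), GNG2 and DKK3 for COL3A1.

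WT1, a transcription factor of mesothelium, was detected in 62 of the 349 lung mesenchymal cells. In these cells 2 members, COL3A1 and COL5A2, were at least 2-fold higher than in the other 287, where 2.26% of all genes were. COL3A1 stood at 1240 against 326 CPM, 3.80-fold (3.48 to 4.16), and COL5A2 at 749 against 267 CPM, 2.81-fold (2.52 to 3.13). COL1A1 was 1.88-fold and COL1A2 1.73-fold higher. COL6A1 went the other way, at 458 against 854 CPM (0.536, 0.477 to 0.601), as did COL12A1 at 41.0 against 80.3 CPM and COL14A1 at 93.0 against 165 CPM. In the 8 deep aorta mesenchymal cells with WT1, COL3A1 stood at 282 against 414 CPM in the other 120. The split by WT1 was chosen after values were seen.

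Contractile cells, with at least 2 UMIs of ACTA2 and 2 of TAGLN, made up 231 of the 349 lung and 124 of the 128 deep aorta mesenchymal cells. Their COL1A1 level in the lung was 5112 CPM, near the 5239 CPM of the whole class. In shallow aorta another 26 contractile barcodes fell in neither class, with 0 UMIs of COL1A1, COL1A2, COL5A1, COL6A1, COL6A3 and COL14A1 and 1 UMI each of COL3A1, COL5A2 and COL12A1, and 20 of the 26 had under 1% mitochondrial UMIs.

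Dividing cells were compared in endothelial cells thinned to 5000 UMIs. COL12A1 stood at 229 CPM (219 to 240.2) in 1603 lung cells with at least 5 UMIs of mitosis genes and at 267 CPM (255 to 281) in 1253 cells with 0. In deep aorta cells it was 278 (245 to 314) in 187 cells and 355 (320.0 to 392) in 216 cells, and COL1A2 had 21 UMIs (22.5 CPM, 13.9 to 34.3) against 54 UMIs (37.6 to 65.2 CPM). COL5A2 there was 194 (166 to 224) against 275 CPM (245 to 308). The EC marker PECAM1 was also lower, at 1216 (1146 to 1289) against 1361 CPM (1292 to 1433). COL1A1 and COL14A1 in deep aorta were not lower, at 21.4 against 18.5 CPM and 90.9 against 84.3 CPM, with overlapping intervals. In lung the COL5A2 intervals overlapped, at 63.8 (58.35 to 69.5) against 68.8 CPM (62.45 to 75.6). COL1A2 is also part of the class rule. How many of all genes differed in this way was not computed.

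Of the other collagens 32 of 35 were found, and 4, 5 and 6 reached 20 CPM in shallow aorta, deep aorta and lung. Of these 3, 4 and 5 were higher in the mesenchymal class and 1, 1 and 0 in the endothelial class, and the backgrounds are those given above for the members. COL8A1, a short-chain collagen of vessel walls, was the gene higher in ECs, at 346, 278 and 141 CPM against 79.2, 111 and 97.8. The largest lung folds were those of COL6A2 (31.2 against 0.0768 CPM), COL5A3 (61.2 against 0.154) and COL15A1 (312 against 0.902). COL4A2, of basement membranes, was 2.39-fold and COL18A1, the source of endostatin, 4.33-fold higher in lung mesenchymal cells. For each UMI of COL6A2 there were 24.98 of COL6A1 in lung mesenchymal cells, and RefSeq places COL6A2 on a scaffold outside the chromosomes.

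Of 24 genes found that modify and secrete collagen, 19, 21 and 22 reached 20 CPM. Of these 1, 4 and 2 were higher in the mesenchymal class and 5, 1 and 1 in the endothelial class. Over all genes 11.1%, 7.64% and 6.51% were higher in the mesenchymal and 20.9%, 12.5% and 9.57% in the endothelial class. Counts near these shares are no finding about the list. The median folds over the genes found were 0.798, 1.20 and 1.32. The collagen chaperone SERPINH1 stood at 604 against 320.0 CPM in lung. CREB3L1, a transcription factor of secretory cells, led at 199 against 2.75 CPM, followed by P4HA3, a prolyl hydroxylase, at 23.8 against 1.15 CPM. P3H2, a prolyl 3-hydroxylase, was lower at 15.6 against 66.6 CPM, and PLOD1 and PLOD2, lysyl hydroxylases, were 0.705 and 0.724 of the endothelial level.

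Processing and cross-linking genes (13 found, 6 at 20 CPM in each set of cells) were higher in the mesenchymal class for 4, 5 and 4 genes and in the endothelial class for 1, 0 and 0. The backgrounds were 11.1%, 7.64% and 6.51% for the mesenchymal and 20.9%, 12.5% and 9.57% for the endothelial class. PCOLCE2, an enhancer of propeptide removal, stood at 78.6 against 0.288 CPM in lung, ADAMTS2, a propeptide protease, at 27.1 against 0.115, and LOXL1 at 255 against 19.9. BMP1, another propeptide protease, was 9.14-fold higher, while LOXL2 was 1.90-fold higher and LOX nearly equal at 323 against 329 CPM.

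Of 21 fibril-associated proteins, 13, 12 and 9 reached 20 CPM, and 4, 6 and 6 were higher in the mesenchymal class and 6, 3 and 1 in the endothelial class. For each list in this paragraph the backgrounds were 11.1%, 7.64% and 6.51% (mesenchymal) and 20.9%, 12.5% and 9.57% (endothelial). Counts near these shares are no finding about a list. FMOD stood at 189.5 against 0.729 CPM in lung and BGN at 868 against 47.2, with EMILIN1 8.01-fold higher. FBLN1, which encodes fibulin-1, went the other way at 6.14 against 72.7 CPM, and TNC and FN1 were 1.04-fold and 1.05-fold. Of 9 collagen receptors, 4, 5 and 4 reached 20 CPM, and 1, 2 and 1 were higher in the mesenchymal and 2, 1 and 1 in the endothelial class, with ITGA1 at 2.97-fold, MRC2 at 1.62-fold and ITGB1 at 1.40-fold in lung, and ITGA2 at 0.160. Of 10 degradation genes, 5 reached 20 CPM in each set, and 2, 2 and 3 were higher in the mesenchymal and 2, 2 and 2 in the endothelial class. TIMP1, TIMP2 and MMP14 were 5.52-fold, 4.82-fold and 2.88-fold higher in lung, while TIMP3 and the gelatinase MMP2 were 0.164 and 0.410 of the endothelial level.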

How the data were processed

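The authors deposited raw counts: UMIs per gene and barcode from Cell Ranger 3.0.2, aligned to Sscrofa11.1. Barcodes beyond the limits were still in the files. Limits from the methods were applied here, with 12 mitochondrial genes. Symbols came from the files for 14983 genes and from a gene table for 1051 more. UMIs were summed per class and given as CPM of the class. Levels have exact Poisson intervals, shares Clopper-Pearson intervals and ratios exact conditional binomial intervals, and 0 UMIs were read as at most 3. Shares were also computed after thinning each cell to 5000 UMIs, leaving out shallower cells (352 of 5286 lung and 41 of 123 shallow aorta endothelial cells). Immune-like barcodes had at least 5 UMIs of 7 immune markers. No doublet caller was run, and barcodes with at least 5 UMIs of both class markers were left out as an alternative. Named were all members and, of each other list, the 3 genes with the largest and the 3 with the smallest lung fold at 20 CPM or more, and for likeness the 3 closest genes for members found in 50% or more of lung mesenchymal cells. Of the genes closest to a member 1 is not reported here, nor is 1 promoter sequence. Likeness in other classes and the split by WT1 were added after values were seen. The members and lists were chosen with earlier results of these data known. Python 3.11.15, numpy 2.4.6, pandas 2.3.3 and scipy 1.17.1 were used.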

Additional observations from a re-analysis of the deposited data

How the results depend on the processing

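No called value turned its direction under any of the 13 alternatives to the processing, and leaving out immune-like barcodes or setting the mitochondrial limit at 10% moved none. The sum of 7 members in shallow aorta endothelial cells (565.5 CPM) was 662 with no upper limit on genes, 614 with a lead of 5 UMIs for a class, 451 as the mean of per-cell CPM and 616 without mitochondrial genes. In deep aorta cells (666) it was 651 without barcodes of both markers and 712 without mitochondrial genes, and in lung cells (353) 364 with classes from markers without collagens and 373 without mitochondrial genes. In shallow aorta, 3 members instead of 5 were higher in the mesenchymal class at a minimum of 50 CPM, and 2 instead of 1 in the endothelial class with marker classes or without mitochondrial genes. At 4-fold, 0 members instead of 1 were higher in lung endothelial cells, and 1 instead of 4 in deep aorta over lung endothelial cells. The count of members higher in lung than in shallow aorta endothelial cells rose from 0 to 1 with marker classes or no minimum, and that against deep aorta to 2 with no minimum. For shallow aorta mesenchymal cells, the count of 3 members higher in lung was 0 with no upper limit or at 4-fold, 1 with a lead of 5 UMIs, and 7 with marker classes or per-cell means. The cause of these moves was not tested. The share of endothelial cells with a UMI of any of the 7 members was 90.2%, 93.5% and 77.6% at 5000 UMIs and 74.8%, 99.8% and 89.6% before thinning. No paired analysis was possible because there was 1 library per origin. Shallow aorta cells rest on 1239576 endothelial and 378808 mesenchymal UMIs. Leaving out each replicate was not possible with 1 library per origin.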

Other observations

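DCN and FBLN1, genes known from fibroblasts, were higher in deep aorta endothelial than in deep aorta mesenchymal cells. Of 8 mesenchymal markers at 20 CPM there, 5 were higher in the mesenchymal class (background 7.64%). The endothelial class was higher for 2, FBLN1 among them (background 12.5%). DCN and LUM stayed under 20 CPM in both classes of deep aorta cells and are not among these 8. DCN stood at 18.4 against 4.92 CPM and FBLN1 at 149.8 against 5.50 CPM in deep aorta cells, while the intervals of LUM overlapped, at 15.5 (14.2 to 16.8) against 12.4 (10.1 to 14.9) CPM. In shallow aorta cells DCN and LUM both stood at 21.8 CPM in the endothelial class, with 0 and 1 UMIs in the mesenchymal class. In lung endothelial cells DCN and LUM had 1 and 2 UMIs in all, while FBLN1 stood at 72.7 CPM. FMOD stood at 16.9 CPM in deep aorta and 0.729 CPM in lung endothelial cells. These genes were picked after their values were seen.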
